A study of Mus musculus with 9 samples.

Results

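The genes described here mark the oligodendrocyte lineage, the glial cells that form myelin in the brain. A set of 36 genes was taken by symbol from a table of 23420 gene symbols, and all 36 were found there. By the stage they are best known to mark, 8 were assigned to the precursor stage, 11 to the premyelinating stage and 17 to myelin. The assignment follows textbook knowledge, was made with earlier results of these data known, and is not exclusive, since several genes, such as Olig2 and Sox10, stay on in later stages.

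Gene expression had been measured by RNA sequencing in neural stem cells of wild type C57BL/6J mice that were 2 days old. The cells came from the hippocampus, were grown in culture and were then moved to a medium that lacked the growth factors bFGF and EGF, which allows them to differentiate. In that medium they received 3 µM NAT, a small molecule that the labels call new, 3 µM P7C3-A20, an aminopropyl carbazole reported to protect young neurons, or the vehicle DMSO. Each of the 3 groups had 3 libraries, called biological replicates in the labels without a statement on whether each came from its own culture or animal. The p-values below therefore reflect only how much these libraries vary, which may be technical. The time of treatment is not given in the sources used here.

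Oligodendrocytes arise from dividing precursors that carry the platelet-derived growth factor receptor Pdgfra and the proteoglycan Cspg4, also known as NG2. The bHLH factors Olig1 and Olig2 and the HMG-box factor Sox10 specify the lineage. When a precursor stops dividing it passes through a premyelinating state marked by the receptor Gpr17 and by Bcas1 and Enpp6. Myrf, Sox10 and Tcf7l2 act in this step, after which the genes of the myelin sheath, such as Mbp, Mog, Mag and Mobp, are switched on.

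Promoter sequences, 300 bases from 250 before to 50 after the start site, were found in RefSeq (GRCm38.p6) for 26 of the 36 genes. Sox10, Myrf, Gpr17, Mbp, Fa2h, Trf, Olig1, Lims2, Bcas1 and Enpp2 had no entry. Promoters of 5 genes are shown, the 4 that held the SOX core described next and the 1 that held a TATA box. Of these, Olig2 and Cnp were abundant in the cultures, while Mag, Mobp and Opalin were near the detection limit. They lie at chr16:91225300-91225599 (plus strand) for Olig2, chr11:100574689-100574988 (plus) for Cnp, chr7:30914814-30915113 (minus) for Mag, chr9:120149492-120149791 (plus) for Mobp and chr19:41077064-41077363 (minus) for Opalin. Capitals mark matches on either strand. The motifs searched were ACAAAG, a core bound by SOX factors, the E-box CAGCTG, and the TATA box as TATAAA.
Olig2: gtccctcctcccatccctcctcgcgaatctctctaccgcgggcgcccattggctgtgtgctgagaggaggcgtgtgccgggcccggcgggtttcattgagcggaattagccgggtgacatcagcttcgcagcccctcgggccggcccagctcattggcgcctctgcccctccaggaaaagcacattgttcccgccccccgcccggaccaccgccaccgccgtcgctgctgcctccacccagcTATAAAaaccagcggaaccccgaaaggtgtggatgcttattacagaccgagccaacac
Cnp: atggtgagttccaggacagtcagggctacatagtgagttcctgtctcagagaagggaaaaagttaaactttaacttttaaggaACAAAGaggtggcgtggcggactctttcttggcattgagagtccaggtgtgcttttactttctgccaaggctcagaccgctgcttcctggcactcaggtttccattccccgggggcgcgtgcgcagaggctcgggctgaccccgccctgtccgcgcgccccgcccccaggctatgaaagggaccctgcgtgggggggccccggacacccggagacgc
Mag: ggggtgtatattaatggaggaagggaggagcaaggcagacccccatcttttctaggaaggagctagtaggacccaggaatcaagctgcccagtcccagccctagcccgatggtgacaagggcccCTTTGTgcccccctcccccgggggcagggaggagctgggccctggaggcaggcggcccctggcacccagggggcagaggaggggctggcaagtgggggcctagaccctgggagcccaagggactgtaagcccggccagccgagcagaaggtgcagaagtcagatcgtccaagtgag
Mobp: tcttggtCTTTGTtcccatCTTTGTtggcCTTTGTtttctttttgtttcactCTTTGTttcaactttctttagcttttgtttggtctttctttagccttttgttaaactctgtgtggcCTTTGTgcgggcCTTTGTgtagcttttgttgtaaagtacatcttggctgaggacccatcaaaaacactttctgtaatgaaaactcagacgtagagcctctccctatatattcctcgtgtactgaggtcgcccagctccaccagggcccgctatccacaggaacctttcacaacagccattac
Opalin: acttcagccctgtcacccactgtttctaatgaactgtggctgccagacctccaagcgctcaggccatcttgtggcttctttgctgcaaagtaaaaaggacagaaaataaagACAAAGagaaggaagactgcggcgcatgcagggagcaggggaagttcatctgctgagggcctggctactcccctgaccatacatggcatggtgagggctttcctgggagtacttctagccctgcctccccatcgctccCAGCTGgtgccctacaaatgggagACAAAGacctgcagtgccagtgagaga
No 2 different motifs shared bases in these promoters.

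The SOX core was found in 4 of the 13 myelin promoters that had an entry, those of Cnp, Mag, Mobp and Opalin, and in none of 6 precursor or 7 premyelinating promoters. This was 4 of all 26 promoters or 15.4%, against 18.7% of all 27018 promoters in the table. Mobp had 6 matches and Opalin 2. The E-box stood in 3 of the 26 promoters against 16.1% of all, and TATAAA stood in 1, that of Olig2, against 14.2% of all. CpG dinucleotides numbered 3 to 9, with a median of 5, in the 7 promoters of genes below 2 TPM with DMSO (TPM is a transcript level corrected for gene length and scaled to the same total in every library). They numbered 4 to 32, with a median of 15.5, in the 6 promoters of genes from 2 to 10 TPM. In the 13 promoters of genes at 10 TPM or more they numbered 5 to 40, with a median of 17. The median over all promoters was 7. These matches describe the letters of the windows and show no binding.

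The libraries held 12028821 to 17217584 reads, recovered as whole numbers from the steps of the TPM values, and the 3 P7C3-A20 libraries were the deepest. Every pair of libraries within a group differed by more than counting noise, with a chi-square per degree of freedom of 1.86 or more. P7C3-A20 replicate 3 stood apart in base composition. Its log2 levels rose by 0.11 for each 10 percentage points of GC content relative to the mean of all libraries, against slopes of -0.06 to 0.04 in the other 8. The fits below are therefore given with and without that library, and with the GC trend of each library removed, where this matters. The library kit is not stated to mark the strand, so genes whose exons overlap cannot be told apart. Among the genes described, these were Gpr17 with Lims2, Cnp with Dnajc7, Nkx6-2 with Inpp5a, Lhfpl3 with A930003O13Rik, Matn4 with Rbpjl and Ermn with Galnt5, and several others overlapped transcripts that are not listed in the table, such as Trf with Gm20425 and Mobp with Gm38642 on the same strand.

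With DMSO, precursor genes were the most abundant. Their median level was 80.4 TPM, against 19.2 TPM for premyelinating genes and 6.67 TPM for myelin genes. Of the precursor genes 4 of 8 reached 100 TPM, as did 0 of 11 premyelinating and 3 of 17 myelin genes, and 4 myelin genes and 1 precursor gene were under 1 TPM. The summed TPM of the 3 stages was 3372 ± 62.6, 247 ± 17.9 and 983 ± 13.05 (SD, n = 3). The precursor stage thus held 73.3% of the sum with DMSO, 73.2% with NAT and 73.5% with P7C3-A20. The premyelinating stage held 5.37%, 5.28% and 5.70%, and the myelin stage 21.4%, 21.5% and 20.8%. The SDs over the DMSO, NAT and P7C3-A20 libraries were 0.401, 1.04 and 1.57 percentage points for the precursor share, 0.329, 0.278 and 0.614 for the premyelinating share and 0.186, 0.784 and 0.955 for the myelin share. Without the highest gene of each stage, the premyelinating share was 8.33% ± 0.465, 8.83% ± 0.265 and 9.32% ± 0.564 (SD, n = 3).
These sums rest on a few genes, since Olig1 made up 64.0% of the precursor sum, Gpr17 31.7% of the premyelinating sum and Cnp 34.6% of the myelin sum with DMSO. Of the myelin sum of 983 TPM, Cnp, Enpp2 and Qdpr held 340, 303 and 176 TPM. They are not restricted to myelin, and leaving out the highest gene removes only Cnp among them. In bulk RNA, fewer cells of a type and less RNA per cell cannot be told apart. Which cells expressed each gene cannot be read either, so the shares do not count cells of a stage. In the same DMSO libraries, 8 astrocyte genes summed to 7315 to 7661 TPM. There, 6 genes of neural stem and dividing cells summed to 13147 to 13718 TPM.

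**Figure D1:**
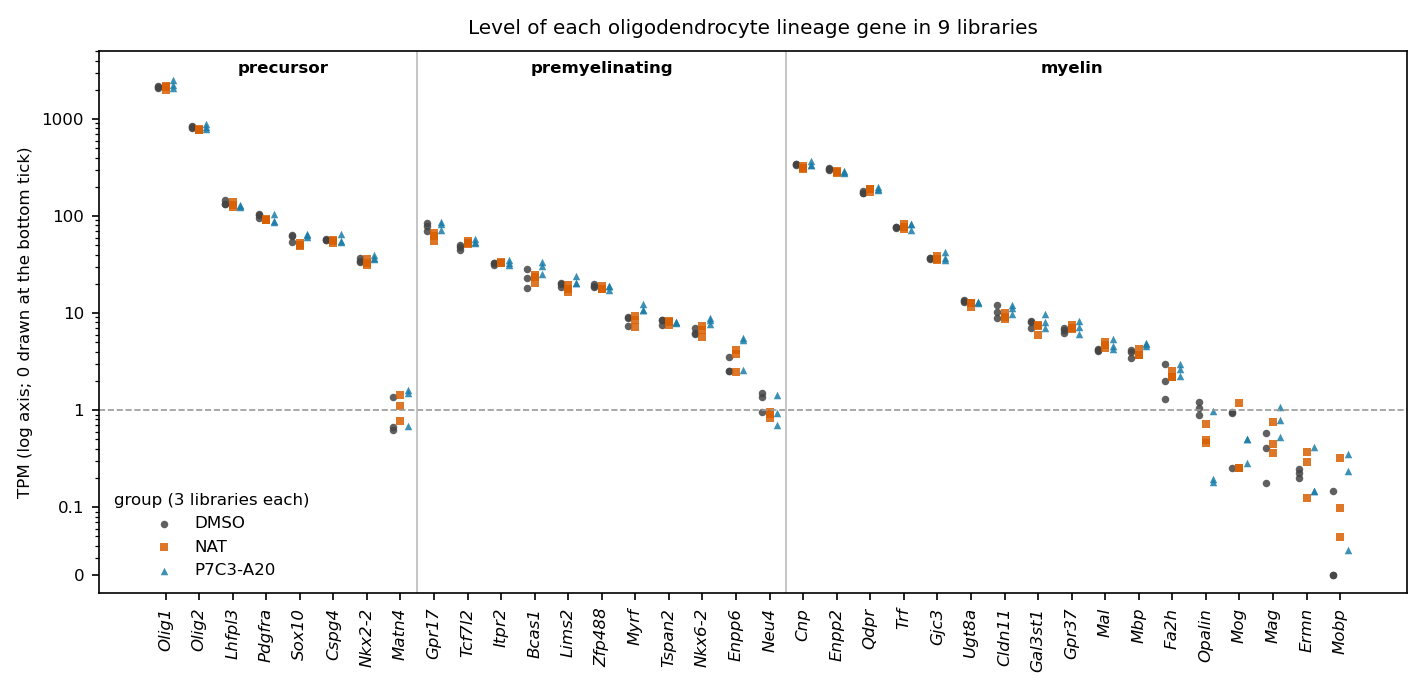
TPM of each of the 36 genes on a log axis, 1 point per library, grouped by stage and ordered by the mean level with DMSO. Circles are DMSO, squares NAT and triangles P7C3-A20, and the dashed line marks 1 TPM. The 3 groups lie close together for nearly all genes, and the genes span from 0.0488 TPM (Mobp) to 2158 TPM (Olig1) with DMSO.

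Among precursor genes Olig1, a bHLH factor of the lineage, was the highest. It stood at 2107, 2157 and 2208 TPM in the DMSO libraries, 2007, 2115 and 2179 TPM in the NAT libraries and 2105, 2260 and 2530 TPM in the P7C3-A20 libraries. The groups overlapped, and the highest value was that of P7C3-A20 replicate 3. Olig2, its partner, which is needed for the lineage to form, stood at 818, 812 and 842 TPM with DMSO, 771, 774 and 798 TPM with NAT and 793, 821 and 881 TPM with P7C3-A20. All 3 NAT libraries were below all 3 DMSO libraries. Lhfpl3, a tetraspan membrane protein gene used as a precursor marker, stood at 146, 132 and 134 TPM with DMSO, 139, 125 and 130 TPM with NAT and 131, 127 and 123 TPM with P7C3-A20. The P7C3-A20 libraries were just below those of DMSO. Sox10 stood at 54.6, 62.6 and 63.0 TPM with DMSO, 50.6, 52.5 and 48.8 TPM with NAT and 60.5, 63.5 and 66.0 TPM with P7C3-A20. Every NAT library was below every other library.
The other precursor genes with DMSO were Pdgfra at 101 ± 4.76, Cspg4 at 57.0 ± 0.907 and the homeobox factor Nkx2-2 at 35.0 ± 1.66 TPM (SD, n = 3). Pdgfra was at 92.3 ± 1.23 TPM in the NAT group. With P7C3-A20 it was at 93.3 ± 9.10 TPM, with replicate 3 at 104 TPM. Matn4, a matrix protein gene, was at 0.886 ± 0.415 TPM with DMSO and rested on 8 to 24 reads per library.

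Gpr17 was the highest premyelinating gene. It stood at 70.5, 85.5 and 79.3 TPM with DMSO, 66.5, 62.9 and 55.9 TPM with NAT and 86.2, 82.2 and 72.4 TPM with P7C3-A20. The NAT libraries were below all others. Tcf7l2, a factor of Wnt signalling needed for differentiation, stood at 44.9, 47.8 and 50.5 TPM with DMSO, 51.3, 55.6 and 52.7 TPM with NAT and 57.4, 52.5 and 53.9 TPM with P7C3-A20. Both compounds' libraries were above those of DMSO. Itpr2, a calcium release channel gene, stood at 31, 32.7 and 32.9 TPM with DMSO, 32.5, 33.8 and 33.0 TPM with NAT and 35.0, 33.2 and 31.5 TPM with P7C3-A20, and its groups overlapped.
Myrf, whose protein activates myelin genes directly, stood at 7.28, 9.02 and 8.82 TPM with DMSO, 9.32, 7.13 and 8.42 TPM with NAT and 12.4, 10.8 and 10.6 TPM with P7C3-A20. The P7C3-A20 libraries were above all others. Nkx6-2, a homeobox factor of the lineage, stood at 6.25, 6.99 and 6.16 TPM with DMSO, 7.34, 6.73 and 5.72 TPM with NAT and 7.74, 8.53 and 8.91 TPM with P7C3-A20, again with the P7C3-A20 libraries on top. Lims2, which shares exon bases with Gpr17, stood at 18.4, 19.8 and 20.4 TPM with DMSO, 16.3, 19.4 and 17.6 TPM with NAT and 20.6, 20.3 and 24.1 TPM with P7C3-A20, and its NAT and P7C3-A20 libraries did not overlap.
Bcas1, a marker of early myelinating cells, varied more between replicates, at 23.1 ± 5.003 TPM with DMSO, 22.7 ± 2.28 with NAT and 29.8 ± 4.41 with P7C3-A20. Enpp6, a marker of newly formed oligodendrocytes, was at 2.86 ± 0.560, 3.48 ± 0.870 and 4.49 ± 1.64 TPM. Its P7C3-A20 libraries were split, with replicates 1 and 2 at 5.56 and 5.31 TPM and replicate 3 at 2.60 TPM, the level of the DMSO libraries. Zfp488 (19.2 ± 0.670 TPM with DMSO), a factor that works with Olig2, the tetraspanin gene Tspan2 (8.18 ± 0.526) and the sialidase gene Neu4 (1.28 ± 0.282) complete the stage. Neu4 rested on 17 to 37 reads per library.

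**Figure D2:**
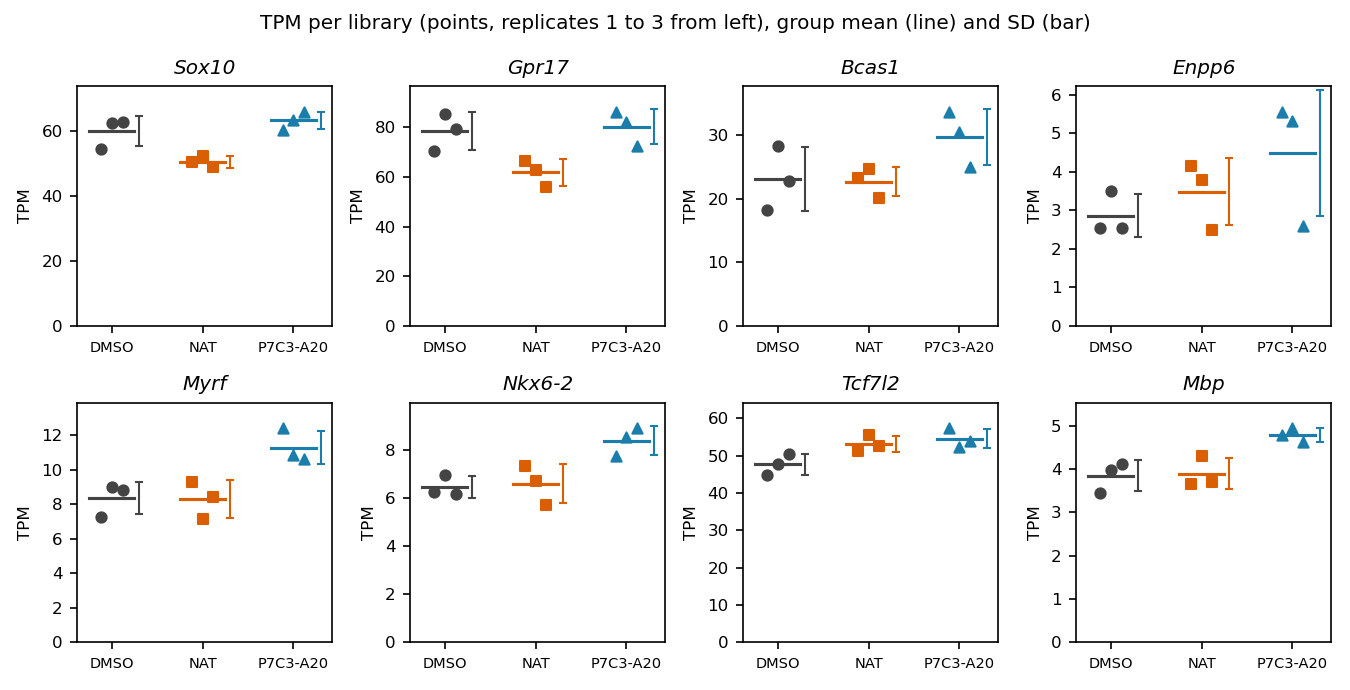
TPM in each library for 8 genes, with points for replicates 1 to 3 from left to right, a line at the group mean and a bar for the SD (n = 3 per group), on axes that start at 0. Sox10 and Gpr17 are lowest in the NAT libraries and Myrf, Nkx6-2 and Mbp highest in the P7C3-A20 libraries, while Enpp6 is split within P7C3-A20.

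The myelin genes ranged from abundant to nearly undetected, with 3 of the 17 at 100 TPM or more with DMSO, 4 from 10 to 100, 6 from 1 to 10 and 4 below 1 TPM. Cnp, a phosphodiesterase of the myelin cytoplasm, stood at 334, 341 and 345 TPM with DMSO, 329, 315 and 309 TPM with NAT and 334, 338 and 366 TPM with P7C3-A20. The NAT libraries were the lowest. Enpp2, which encodes autotaxin, stood at 298, 303 and 309 TPM with DMSO, 293, 278 and 284 TPM with NAT and 290, 287 and 277 TPM with P7C3-A20. Both compounds' libraries were below those of DMSO. Qdpr, a pteridine reductase gene, stood at 174, 182 and 171 TPM with DMSO, 189, 190 and 178 TPM with NAT and 191, 185 and 197 TPM with P7C3-A20, with all P7C3-A20 libraries above DMSO. Cnp, Enpp2 and Qdpr are not restricted to myelin, and other cells of the brain express them.
Trf, the transferrin gene, was at 76.2 ± 1.29 TPM and the connexin gene Gjc3 at 36.7 ± 0.847 TPM with DMSO. The ceramide galactosyltransferase gene Ugt8a was at 13.2 ± 0.303 and the tight junction gene Cldn11 at 10.4 ± 1.52 TPM. The sulfotransferase gene Gal3st1 (7.84 ± 0.668 TPM), the receptor gene Gpr37 (6.67 ± 0.396), the proteolipid gene Mal (4.18 ± 0.132) and the fatty acid hydroxylase gene Fa2h (2.10 ± 0.853) were lower.
Mbp, the major basic protein of myelin, was at 3.84 ± 0.349 TPM with DMSO, 3.89 ± 0.361 with NAT and 4.78 ± 0.158 with P7C3-A20, on 107 to 206 reads per library. Its P7C3-A20 libraries were above all others.
The late myelin genes were close to undetected. Mog, on the outer surface of myelin, had 2, 7 and 8 reads with DMSO, 2, 10 and 2 with NAT and 5, 3 and 5 with P7C3-A20. Mag, at the inner surface, had 2, 6 and 5 reads, then 5, 9 and 4, then 11, 8 and 15. In TPM its DMSO libraries reached 0.578 and its lowest P7C3-A20 library was at 0.531, so these groups overlapped. Mobp had 3, 0 and 0 reads with DMSO, 2, 7 and 1 with NAT and 9, 1 and 6 with P7C3-A20. Opalin had 5, 4 and 4 reads, then 3, 2 and 2, then 5, 1 and 1, and the cytoskeletal Ermn had 2 to 9 reads per library. These 5 genes did not reach 1 TPM in 3 libraries and were not tested, so 31 of the 36 were tested.

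NAT was compared with DMSO to ask which of these genes the compound changed. No member was called by limma at an adjusted p under 0.05, against 0.0289% of all 13839 genes tested. The lowest adjusted p values belonged to Sox10 and Gpr17. On the log2(TPM + 1) scale, which understates changes of low genes, the difference was -0.24 ± 0.06 for Sox10 (SE, 95% interval -0.37 to -0.11, limma adjusted p = 0.225) and -0.34 ± 0.09 for Gpr17 (-0.53 to -0.15, limma adjusted p = 0.225). Tcf7l2 was at 0.15 ± 0.05, Enpp2 at -0.09 ± 0.03 and Cnp at -0.10 ± 0.04, with limma adjusted p values of 0.331, 0.338 and 0.390. Lims2, whose reads cannot be fully separated from those of Gpr17, was at -0.13 ± 0.08.
At an unadjusted p under 0.05, 1 member was higher (Tcf7l2), against 8.67% of all genes, and 4 were lower (Sox10, Gpr17, Cnp and Enpp2), against 3% of all genes. The groups did not overlap for 2 members that were higher (Tcf7l2 and Mal), against 14.1% of all genes, and for 8 that were lower, against 4.89%. The 8 were Olig2, Sox10, Pdgfra, Gpr17, Neu4, Cnp, Ugt8a and Enpp2.
With the recovered reads and limma's voom in place of TPM, 2 members were called, both lower: Sox10 at -0.27 (adjusted p = 0.048) and Gpr17 at -0.37 (adjusted p = 0.0063), against 0.202% of all genes. With the GC trend removed as well, voom called Sox10 and Gpr17 again (adjusted p = 0.0089 and 0.0054), against 0.387% of all genes. These calls turned on single libraries. Without DMSO replicate 2, NAT replicate 2 or NAT replicate 3, voom called 0 members, and without P7C3-A20 replicate 3, a library of neither group compared, it called 6. The share of all genes called with a library left out is not given here. These counts therefore cannot be read as results about the members.

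**Figure D3:**
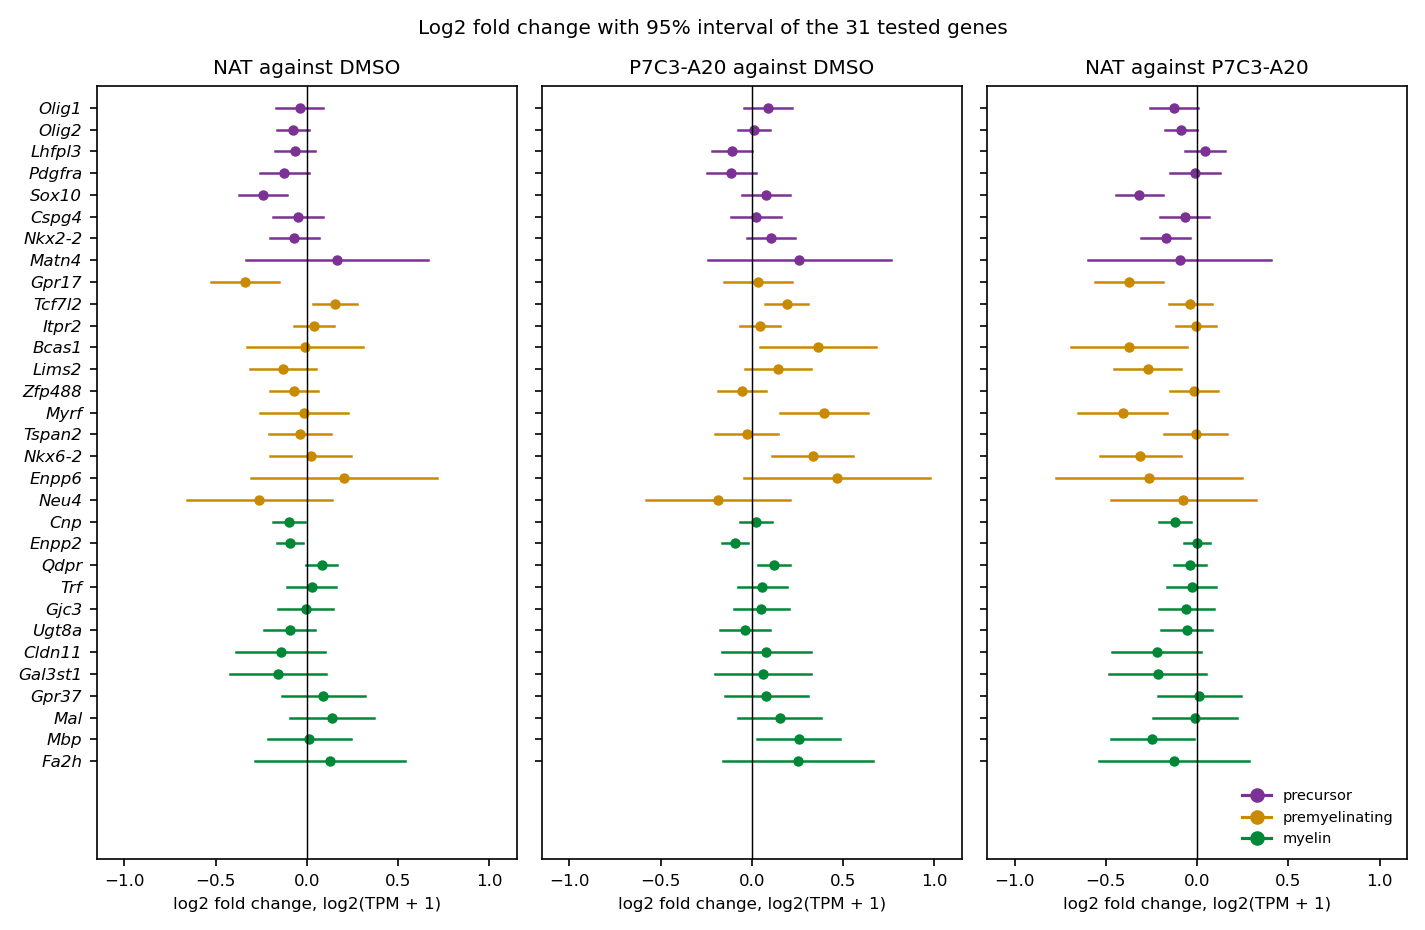
Log2 fold change on the log2(TPM + 1) scale for the 31 tested genes in the 3 comparisons. Points are limma estimates and bars 95% intervals without adjustment for the number of genes, coloured by stage. Sox10 and Gpr17 lie left of 0 in both panels with NAT, and Myrf, Nkx6-2 and Tcf7l2 right of 0 for P7C3-A20, and none had an adjusted p under 0.05.

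P7C3-A20 was compared with DMSO in the same fit, with the same DMSO libraries as the comparison above. No member was called by limma, against 0.0217% of all genes. Myrf had the lowest adjusted p, with a difference of 0.39 ± 0.11 (SE, 95% interval 0.15 to 0.64, limma adjusted p = 0.170). It was 0.43 without P7C3-A20 replicate 3 and 0.30 with the GC trend removed. Tcf7l2 was at 0.19 ± 0.05, Nkx6-2 at 0.33 ± 0.10, Qdpr at 0.12 ± 0.04 and Enpp2 at -0.09 ± 0.03, with limma adjusted p values of 0.172, 0.182, 0.198 and 0.219. Without P7C3-A20 replicate 3 these were 0.20, 0.29, 0.10 and -0.07. With the GC trend removed, Nkx6-2, whose transcript has a GC content of 64.3%, was at 0.22 and Qdpr at 0.07.
At an unadjusted p under 0.05, 6 members were higher (Bcas1, Tcf7l2, Nkx6-2, Myrf, Mbp and Qdpr), against 10.7% of all genes, and 1 was lower (Enpp2), against 5.12%. The groups did not overlap for 6 members that were higher (Tcf7l2, Nkx6-2, Myrf, Mbp, Mal and Qdpr), against 13.1% of all genes, and 2 that were lower (Lhfpl3 and Enpp2), against 7.49%.
By voom 1 member was called, Myrf at 0.42 (adjusted p = 0.019), against 1.8% of all genes. With the GC trend removed the adjusted p of Myrf was 0.11 and no member was called, against 0.255% of all genes. Without DMSO replicate 1 or DMSO replicate 2 voom called 0 members. Without P7C3-A20 replicate 3 it called 4: Myrf, Bcas1, Enpp6 and Pdgfra, the last being lower. Here too the share of all genes called with a library left out is not given.

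NAT was then compared with P7C3-A20 at the same dose. No member was called by limma, against 0% of all genes. In this comparison 28 of the 31 members had a negative difference, that is, a lower level with NAT, against 46.0% of all genes tested. Sox10 was at -0.32 ± 0.06 (SE, 95% interval -0.45 to -0.19, limma adjusted p = 0.168) and Gpr17 at -0.37 ± 0.09 (-0.56 to -0.19, limma adjusted p = 0.168). Myrf was at -0.41 ± 0.11, Lims2 at -0.27 ± 0.08 and Nkx6-2 at -0.31 ± 0.10, with limma adjusted p values of 0.187, 0.206 and 0.216. Without P7C3-A20 replicate 3 the 5 differences were -0.29, -0.44, -0.45, -0.20 and -0.27.
At an unadjusted p under 0.05, 10 members were lower with NAT, against 5.89% of all genes, and 0 were higher, against 9.92%. The 10 were Olig2, Sox10 and Nkx2-2 among precursor genes, Gpr17, Bcas1, Lims2, Nkx6-2 and Myrf among premyelinating genes, and Mbp and Cnp among myelin genes. All of them but Olig2 also had groups that did not overlap, 9 members in all, against 8.35% of all genes. No member was higher without overlap, against 13.3%. With the GC trend removed, 3 of the 10 were no longer under 0.05. These were Olig2 at -0.020 (limma unadjusted p = 0.52), Nkx2-2 at -0.13 (0.055) and Nkx6-2 at -0.22 (0.067). Enpp2 then fell under it, at -0.058 (limma unadjusted p = 0.049).
By voom 4 members were called, all lower with NAT, against 2.25% of all genes: Sox10 (-0.34, adjusted p = 0.0055), Gpr17 (-0.39, adjusted p = 0.0039), Myrf (-0.47, adjusted p = 0.010) and Bcas1 (-0.40, adjusted p = 0.042). With the GC trend removed 2 were called, Sox10 (-0.24, adjusted p = 0.028) and Gpr17 (-0.35, adjusted p = 0.011), against 0.445% of all genes. Without NAT replicate 3 voom called 0 members, and without P7C3-A20 replicate 1 it called 6, again without a share of all genes to set beside these counts.

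The stages were also set side by side. The median difference of NAT against P7C3-A20 was -0.26 over the 11 premyelinating genes and -0.093 over the 8 precursor genes. It was -0.056 over the 17 myelin genes and 0.011 over all genes tested. All 11 premyelinating differences were negative, as were 46.0% of those of all genes tested. However, Neu4, Tcf7l2, Zfp488, Tspan2 and Itpr2 lay between -0.075 and -0.0054, each smaller in size than its SE. The other premyelinating genes lay between -0.41 and -0.26, and Gpr17 and Lims2 among them share exon bases. The median of -0.26 was the value of Enpp6, whose P7C3-A20 libraries were split. Without NAT replicate 3 the premyelinating, precursor and myelin medians were -0.095, -0.088 and -0.014. The premyelinating and precursor medians were then nearly alike. The premyelinating median was -0.14 without P7C3-A20 replicate 2, -0.20 without P7C3-A20 replicate 3 and -0.21 with the GC trend removed.
Against DMSO the premyelinating median was -0.014 with NAT, which became 0.037 without DMSO replicate 2, and 0.14 with P7C3-A20, the latter 0.051 with the GC trend removed. The precursor median was -0.067 with NAT and 0.049 with P7C3-A20, which became -0.0068 without P7C3-A20 replicate 3 and -0.043 with the GC trend removed. The myelin median was 0.013 with NAT and 0.060 with P7C3-A20. The former was -0.047 without DMSO replicate 1. With the GC trend removed it was -0.026, but over the 12 tested myelin genes only, so the set of genes changed as well. The medians over all genes tested were 0.030 with NAT and 0.015 with P7C3-A20. These medians are descriptions of the genes chosen and carry no test.
Single libraries spread widely around them. The median deviation of the premyelinating genes from the DMSO mean ran from -0.08 to 0.10 among the DMSO libraries, from -0.14 to 0.02 among the NAT libraries and from 0.07 to 0.14 among the P7C3-A20 libraries. P7C3-A20 replicates 2 and 3 lay below DMSO replicate 2, so those groups overlapped, while the NAT and P7C3-A20 libraries did not.

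**Figure D4:**
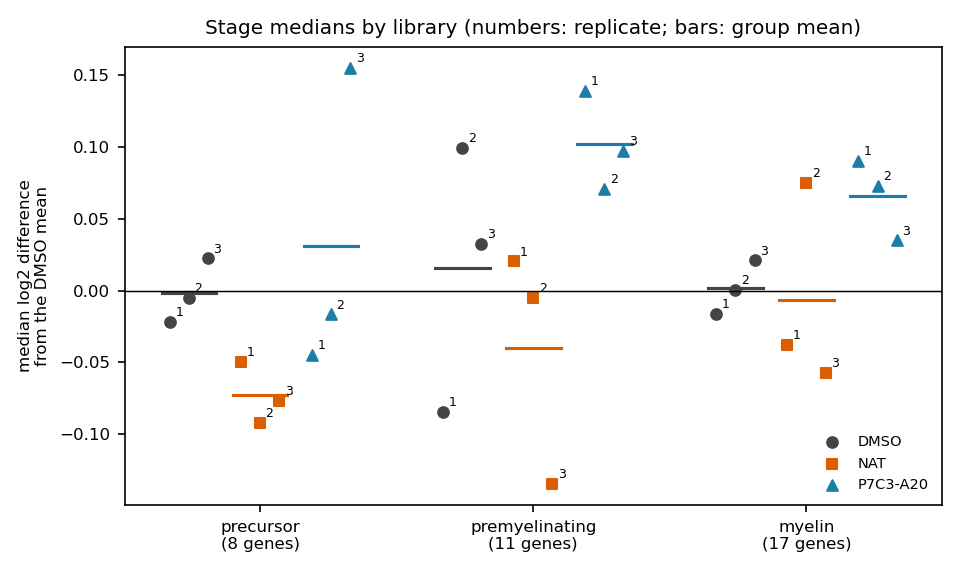
Median over the genes of a stage of each library's log2(TPM + 1) minus the mean of the DMSO libraries, with 1 point per library, its replicate number beside it and a bar at the group mean. The premyelinating medians of P7C3-A20 lie between 0.07 and 0.14, above those of NAT, and the precursor median of P7C3-A20 replicate 3, at 0.16, stands above all other libraries.

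Further genes of the pathway were read from lists of other markers. Of 23 other precursor genes tested, 0 were called with NAT, 1 was called higher with P7C3-A20 and 0 between the compounds. The called gene was C1ql1, a secreted C1q-like protein gene of precursors, which went from 48.1 ± 2.00 TPM with DMSO to 63.0 ± 2.63 TPM with P7C3-A20 (SD, n = 3 each), a difference of 0.38 ± 0.05 (limma adjusted p = 0.048). Its limma adjusted p was 0.071 without P7C3-A20 replicate 3, at a difference of 0.41, and 0.226 with the GC trend removed, at 0.27. It was above 0.05 in most other settings too, at 0.326 without DMSO replicate 1 and 0.213 without P7C3-A20 replicate 2. It stayed under 0.05 only with quantile normalization (0.043) and without NAT replicate 1 (0.040). The phosphatase and proteoglycan gene Ptprz1 was at 1527 ± 9.43, 1622 ± 25.8 and 1462 ± 75.7 TPM with DMSO, NAT and P7C3-A20, and the sulfatase gene Sulf2 at 286 ± 8.06, 318 ± 8.04 and 305 ± 15.0 TPM.
Of 19 other premyelinating genes tested none was called by limma in any comparison. The proteoglycan gene Bcan was at 770 ± 57.5, 818 ± 45.0 and 903 ± 24.9 TPM, the deacetylase gene Sirt2 at 239 ± 11.9, 248 ± 9.54 and 268 ± 4.97 TPM, and Mpzl1 was at 159. ± 0.704, 161. ± 1.58 and 172. ± 5.76 TPM. Of 20 other myelin genes tested none was called either. The tubulin gene Tubb4a was at 37.6 ± 2.73, 36.1 ± 1.02 and 45.0 ± 0.936 TPM and the lipid transporter gene Abca2 at 51.4 ± 3.44, 57.0 ± 1.23 and 60.1 ± 0.690 TPM. Klk6, a protease gene of mature oligodendrocytes, was listed at 0 in all 9 libraries.
Of 35 regulators of oligodendrocyte differentiation tested none was called by limma. Hes5 and Hes1, Notch targets known to hold back differentiation, were at 155 ± 15.2, 121 ± 5.22 and 142 ± 11.2 TPM and at 29.9 ± 0.392, 24.9 ± 1.53 and 27.3 ± 2.08 TPM. Lingo1, an inhibitor of differentiation, was at 47.1 ± 0.797, 48.4 ± 3.36 and 55.3 ± 2.66 TPM. At an unadjusted p under 0.05, these 4 lists, in the order given, had 2, 4, 1 and 2 higher and 1, 0, 0 and 3 lower genes with NAT, where 8.67% of all genes were higher and 3% lower. With P7C3-A20 they had 3, 6, 5 and 5 higher and 2, 0, 0 and 2 lower, where 10.7% of all genes were higher and 5.12% lower. For NAT against P7C3-A20 they had 3, 0, 1 and 2 higher and 3, 4, 5 and 5 lower, where 9.92% of all genes were higher and 5.89% lower. By voom, which called 0.202% of all genes with NAT, 1.8% with P7C3-A20 and 2.25% between the compounds, Hes5 was called with NAT, and C1ql1, Ddr1, Bcan, Tubb4a, Abca2, Lingo1 and Zeb2 with P7C3-A20. Between the compounds the genes voom called included Ptprz1, C1ql1, Bcan, Tubb4a, Lingo1 and Sox4.

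Markers of other cells in the cultures were read beside these results. The 8 astrocyte genes summed to 7315 to 7661 TPM with DMSO, 7834 to 8049 with NAT and 6929 to 7825 with P7C3-A20, and 6 genes of neural stem and dividing cells to 13147 to 13718, 12487 to 13084 and 11891 to 12515 TPM. The NAT sums of the astrocyte genes thus lay above all others, and the stem cell sums of DMSO lay above those of both compounds. Fabp7 alone made up 89.4% to 90.5% of the stem cell sum. The other 5 genes of that list summed to 1278 to 1323 TPM with DMSO, 1319.5 to 1340.0 with NAT and 1255 to 1287 with P7C3-A20, so without Fabp7 the summed DMSO levels overlapped both groups. Single genes of the 6 differed more. At limma unadjusted p under 0.05, 1 was lower with NAT and 3 with P7C3-A20, against 3% and 5.12% of all genes. Limma called 0 of them. Voom called Fabp7 and Mki67 with P7C3-A20, against 1.8% of all genes, and Mki67 and Top2a between the compounds, against 2.25%. The 10 neuron genes summed to 728 to 758, 714 to 759 and 693 to 749 TPM. Of these, Rbfox3, Syt1 and Stmn2 were at 1.63, 2.25 and 0.667 TPM with DMSO. Snap25, Dcx and Tubb3 were at 14.3, 26.8 and 46.9 TPM. Other genes of the list thus made up most of the neuron sum. The 7 Schwann cell genes summed to 115 to 121, 119 to 128 and 105 to 127 TPM. The part of these other cells in the differences of the lineage genes was not tested.
The other lists stayed low in all groups. The 8 microglia genes summed to at most 2.14 TPM, the 7 pericyte genes to 2.26, the 5 fibroblast genes to 0.731 and the 5 endothelial genes to 7.21 TPM. The defining markers Cx3cr1, Trem2 and Ctss of microglia, Lum of fibroblasts, and Cldn5 and Cdh5 of endothelium were listed at 0 in all 9 libraries. The 6 choroid plexus genes summed to 22 to 27.5 TPM, mostly Otx2.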

How the data were processed

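Per the labels' protocols, the 9 RNA libraries were made with a TruSeq kit from Illumina. The deposited table gives TPM, which the authors scaled to a total of 1000000 in each library. Bowtie 0.12.2 and the builds mm8 and mm9 are named, without a role, in the submitters' processing notes. The sources used here give no counter or annotation. Whole reads were recovered from the steps of the TPM values for 19302 of 19302 genes with a value (tolerance 0.001, or 0.005 for the deepest genes). In simulated data 96.4% of genes came back exactly, and 100% up to a common divisor of a gene's reads. The recovery gave the depth of 12028821 to 17217584 reads and the input of voom, with median-of-ratios library sizes.

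Groups were compared with limma-trend (limma 3.58.1, R 4.3.3) on log2(TPM + 1) over 13839 genes with at least 1 TPM in at least 3 libraries. A single fit over the 9 libraries left 6 residual degrees of freedom. A gene was called at a two-sided Benjamini-Hochberg adjusted p under 0.05, adjusted over all genes tested. The script was tested on simulated data. GC content came from GENCODE transcripts (GRCm38) for 98.4% of the symbols and all 36 genes, and its trend per library was removed with a spline of 5 degrees of freedom. Promoters came from RefSeq. Summaries used pandas 2.3.3 and numpy 2.4.6 under Python 3.11.15, and plots matplotlib 3.10.9.

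The genes, stages and lists were chosen with earlier results of these data known. Values in every library are given for called members, the 5 members of lowest p in each comparison and the 3 of highest level in each stage; of other lists, called genes and the 3 of lowest p, of which 1 is not reported here. Other genes given in every library were chosen after their values were seen. Alternatives were the replicate block, GC removal, quantile normalization, no filter or 5 TPM, a pseudocount of 0.1, the 6 compared libraries alone, voom and each library left out. Voom with GC removal or with a library left out was chosen after seeing the data.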

Additional observations from a re-analysis of the deposited data

How the results depend on the processing

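By limma-trend no member was called in any of the 3 comparisons under any alternative run, and the differences of the 5 members of lowest p in each comparison kept their direction. Voom called more. Against DMSO it called 2 members with NAT and 1 with P7C3-A20, and between the compounds it called 4. With the GC trend removed these counts were 2, 0 and 2. With each library left out of voom in turn, these counts ran from 0 to 6, 0 to 4 and 0 to 6. The share of all genes called in those fits is not given here, so a rise in members cannot be told from a rise over all genes. By voom Sox10 was at -0.27 and Gpr17 at -0.37 for NAT against DMSO, Myrf at 0.42 for P7C3-A20 against DMSO, and Sox10, Gpr17 and Myrf at -0.34, -0.39 and -0.47 for NAT against P7C3-A20.

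The labels do not say whether same-numbered libraries were made together. Deviations of same-numbered libraries correlated at -0.062 to 0.067, and those of other pairs between groups at -0.090 to 0.099. These values show no pairing by number but cannot exclude that libraries were made as sets. The replicate block called 0 members in each comparison, with and without the GC trend. Stage medians moved by more than the spread between libraries in some settings. With the GC trend removed, the P7C3-A20 median against DMSO was -0.043 for precursor and 0.051 for premyelinating genes. The NAT median of myelin genes was then -0.026, as it was with quantile normalization (-0.026). Both of these myelin values were taken over the 12 tested genes instead of all 17. With each library left out in turn, the premyelinating median of NAT against P7C3-A20 ran from -0.32 to -0.095. That of NAT against DMSO ran from -0.080 to 0.037 and that of P7C3-A20 against DMSO from 0.10 to 0.18. The precursor median ran from -0.12 to -0.019 for NAT against P7C3-A20 and from -0.0068 to 0.092 for P7C3-A20 against DMSO. The myelin median ran from -0.047 to 0.039 for NAT and from 0.058 to 0.10 for P7C3-A20 against DMSO, and from -0.081 to -0.014 between the compounds. Without the highest gene of each stage, the precursor share was 59.9%, 58.7% and 59.1% with DMSO, NAT and P7C3-A20, the premyelinating share 8.33%, 8.83% and 9.32%, and the myelin share 31.7%, 32.5% and 31.6%. The cause of these shifts was not tested. Depth limits Mog, Mag, Mobp, Opalin and Ermn, with 0 to 15 reads per library.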
